A study of Mus musculus with 6 samples.

Results

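Matricellular proteins are secreted into the extracellular matrix, where they act on cells rather than bear load. The 10 genes described here were taken by name from the 55471 gene identifiers of the expression table: the fasciclin-domain genes Postn and Tgfbi, tenascin-C (Tnc), the thrombospondins Thbs1 and Thbs2, the SPARC family genes Smoc1, Smoc2, Sparc and Sparcl1, and osteopontin (Spp1). Each symbol stood on 1 Ensembl identifier. Polyadenylated RNA of endosteal mesenchymal stromal cells, the stroma along the inner bone surface, was sequenced from C57BL/6J mice in 3 libraries labelled Bap1 cKO (Prx1-cre;Bap1fl/fl) and 3 labelled Bap1 WT (Bap1fl/fl). Both groups thus carry the floxed Bap1 allele, and they differ in the Prx1-cre transgene, whose promoter is active in limb mesenchyme. Bap1 is a deubiquitinase of histone H2A. The labels give no age and do not say whether the libraries of a group come from separate animals, so the p-values below rest on the variation among 6 libraries, which may be technical only.

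Proteins of this class bind collagens, fibronectin, integrins and growth factors, and they tune cell adhesion, matrix assembly and growth factor access. In bone, Sparc (osteonectin) is an abundant non-collagenous matrix protein, Spp1 is a mineral-bound ligand of integrins and Cd44 that restrains the haematopoietic stem cell pool at the endosteum, and Postn is known from the periosteum and the periodontal ligament. Mice that lack Thbs2 are known for dense cortical bone.

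The values are RPKM, read numbers scaled by gene length and library size, so levels can be compared between genes. Bap1 was not lower in the libraries labelled cKO, at 28.27, 25.16 and 22.99 RPKM in cKO replicates 1 to 3 against 22.8, 22.72 and 24.01 RPKM in WT replicates 1 to 3 (log2 difference 0.13, SE 0.10, limma adjusted p = 0.29). A gene total cannot show whether floxed exons were removed, so it does not check the labels, and "cKO" and "WT" stand here for the libraries so labelled. Where 3 values of a group are given, they are those of replicates 1, 2 and 3 in that order. Depth estimated from the steps between low values was 13 to 22.1 megafragments in the cKO libraries and 13.1 to 14.9 in the WT libraries, with cKO replicate 3 the deepest. Of 10 mesenchymal stromal markers, 8 reached 1 RPKM in every cKO library and 9 in every WT library, Lum was listed at 0 throughout, and their summed level was 124.12 to 228.75 RPKM in the cKO libraries against 2150.35 to 2278.65 in the WT libraries. Prrx1, the gene whose promoter drives the Cre, stood at 39.46 to 72.24 RPKM in cKO and 68.16 to 83.75 in WT, and Twist1 at 14.86 to 15.87 and 16.11 to 17.74, whereas Pdgfrb stood at 1.25 to 7.95 RPKM in cKO and 94.44 to 98.98 in WT. Pdgfra went the other way, at 9.72 to 19.56 RPKM in cKO and 6.86 to 8.31 in WT. The 8 osteoblast markers summed to 5.71 to 7.38 RPKM in cKO and 46.62 to 50.96 in WT, with Sp7, Ibsp and Bglap2 at 0 in every cKO library, and 1 and 2 of the 8 reached 1 RPKM in every library of cKO and WT. Of 11 kidney tubule markers, 2 reached 1 RPKM in every cKO library and 1 in every WT library, and their sum was 126.05 to 247.12 RPKM in cKO, most of it Pax8 at 124.15 to 243.21, and 7.13 to 9.37 in WT, with Umod and Calb1 at 0 in every library. Among haematopoietic markers, Cd3e and Adgre1 were listed at 0 in every library, and Ptprc, Spi1, Itgam and Cd79a reached at most 0.24 RPKM. Csf1r was at 0.36 to 1.3 RPKM in cKO and 0.31 to 0.83 in WT, Hbb-bs at 0.18 to 2.24 in cKO and 0 to 0.16 in WT, and Lyz2 at 0 to 0.19 in cKO and 0.4 to 0.65 in WT. The 4 platelet markers (1 reached in each group, Gp9 at 0 throughout) summed to 3.6 to 6.86 and 2.35 to 2.78 RPKM in cKO and WT, the 8 endothelial markers (1 reached in each group) to 9.86 to 14.75 RPKM in cKO and 2.5 to 4.44 in WT, and the 8 epithelial markers (2 reached in each group) to 6.01 to 10.04 and 15.54 to 16.66. The 6 adipocyte markers (1 reached in cKO, 2 in WT) summed to 1.9 to 4.1 RPKM in cKO and 457.32 to 471.25 in WT, and the 6 chondrocyte markers (3 and 2 reached) to 30.47 to 120.3 and 73.66 to 82.46. The part of these marker differences in the results below was not tested, and in bulk RNA fewer cells of a type and less RNA per cell cannot be told apart.

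The start regions of 3 of these genes are shown because the genes cover both directions of change: Postn and Spp1, which were lower in cKO, and Tnc, which was higher. The set of RefSeq windows used here, of 300 bases (250 before and 50 after a start, build GRCm38.p6), covers 6 of the 10 genes, 9 windows in all. Thbs1, Smoc1, Smoc2 and Sparcl1 have no window in that set, which does not mean that RefSeq lacks a start for them. Capitals mark matches, on either strand, to the TATA box TATAAA, the CCAAT box CCAAT, the AP-1 site TGANTCA and the Runx site AACCACA. No matches overlap in the printed windows. The gene totals do not say which start was used. Postn lies on the plus strand at chr3:54360857-54361156, Spp1 on the plus strand at chr5:104434861-104435160 and Tnc on the minus strand at chr4:64046887-64047186.
Postn: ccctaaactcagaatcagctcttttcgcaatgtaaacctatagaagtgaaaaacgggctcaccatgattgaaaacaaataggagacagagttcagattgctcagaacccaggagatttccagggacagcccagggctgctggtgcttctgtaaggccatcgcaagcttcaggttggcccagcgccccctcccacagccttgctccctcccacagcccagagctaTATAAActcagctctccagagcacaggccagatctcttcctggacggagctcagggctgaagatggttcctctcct
Spp1: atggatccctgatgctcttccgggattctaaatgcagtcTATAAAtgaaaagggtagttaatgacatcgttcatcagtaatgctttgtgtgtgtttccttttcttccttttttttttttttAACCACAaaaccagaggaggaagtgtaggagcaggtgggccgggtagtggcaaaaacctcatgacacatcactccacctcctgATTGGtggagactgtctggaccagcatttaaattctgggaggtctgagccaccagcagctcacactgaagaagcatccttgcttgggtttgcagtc
Tnc: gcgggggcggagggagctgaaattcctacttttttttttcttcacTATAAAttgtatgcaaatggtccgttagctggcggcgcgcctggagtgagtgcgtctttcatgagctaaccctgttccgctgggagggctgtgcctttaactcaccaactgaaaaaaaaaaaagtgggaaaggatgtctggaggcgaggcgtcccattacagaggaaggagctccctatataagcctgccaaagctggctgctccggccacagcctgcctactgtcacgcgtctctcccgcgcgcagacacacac
Counted from the start, the Postn window held TATAAA at −26 and the Tnc window at −205. The Spp1 window held TATAAA at −211, the Runx letters at −129 and reverse-strand CCAAT letters at −46. Only exact letters were searched, so near variants, such as tatataag in the Tnc window and tttaaa in the Spp1 window, are unmarked. Whether a TATAAA match serves as the TATA box of its start was not tested. Of the 32851 mouse windows of this length, 13.6% held TATAAA, 37.4% CCAAT, 7.81% TGANTCA and 5.27% AACCACA. Of the 9 windows of the matricellular genes, 5 held TATAAA, 3 CCAAT, none TGANTCA and 1 AACCACA, and the 2 Tnc windows overlap and share their TATAAA. These matches describe letters in the window and say nothing of binding.

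Most of these genes were lower in the cKO libraries, and by large factors. Of the 10, 7 fell, 2 rose and 1 did not pass (limma on log2(RPKM + 1), Benjamini-Hochberg adjusted p under 0.05). Over all 12223 genes tested, 34.7% were higher, 26.5% lower and 61.2% called in either direction. That balance depended on the scaling: genes higher in cKO numbered 3619 and genes lower in cKO 3773 with trimmed-mean scaling, against 4237 and 3239 as deposited, while the 10 genes kept their counts. All 10 passed the minimum mean of 1 RPKM over the 6 libraries, though Smoc1 passed it through its cKO values, and Smoc2 and Sparcl1 through their WT values. Of the other tested genes named below, Ptprz1, Dcn, Comp and Foxd1 passed only through their cKO values. Mmp13, Car3 and Lgr5 passed only through their WT values. For all such genes the filter itself favours a call. For the 9 called genes the values of the cKO libraries lay wholly beyond those of the WT libraries, 2 above and 7 below, where 39.2% of all genes tested lay above without overlap, 29.8% below, and 69% in either direction. The median log2 difference of the 10 genes was −2.65, against 0.09 for all genes tested, and their median absolute difference was 3.90 against 0.53.

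**Figure D1:**
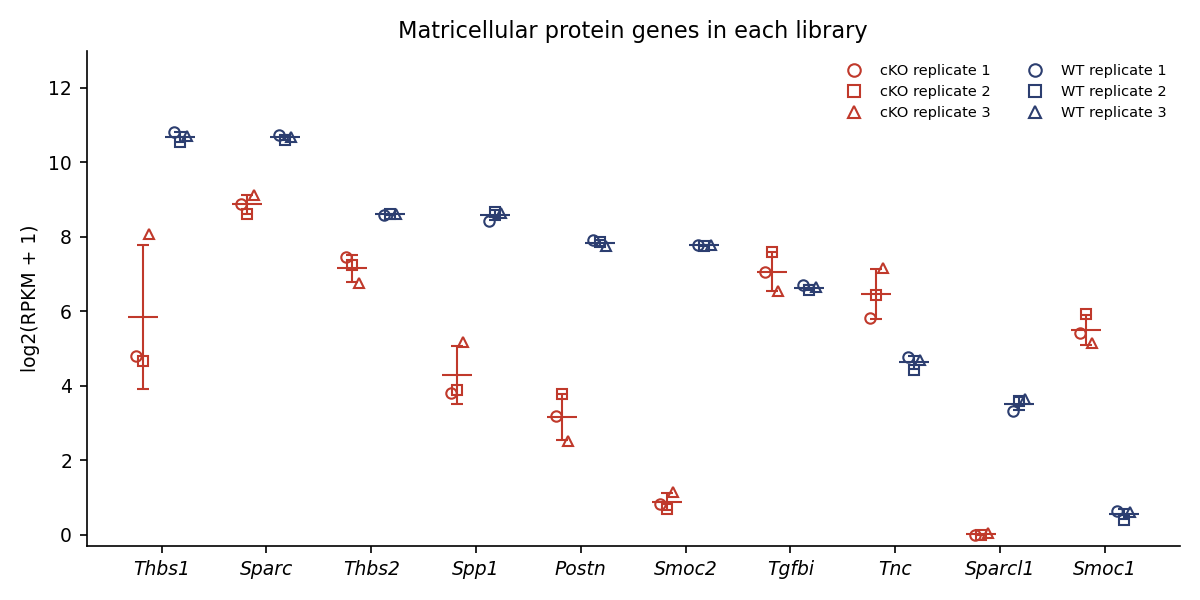
Level of each gene in each library on the log2(RPKM + 1) scale (y axis), with genes ordered by their WT mean (x axis). Open symbols are libraries, cKO in red left of WT in blue, and bars are the mean ± SD of 3 libraries on that scale. The cKO symbols lie below the WT symbols for 7 genes, above them for Tnc and Smoc1, and overlap them for Tgfbi.

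Together the 10 genes summed to 927.42, 928.3 and 1239.21 RPKM in cKO replicates 1 to 3, against 4829.06, 4407.43 and 4674.85 RPKM in WT replicates 1 to 3. The mean sum was 1032 ± 180 RPKM in cKO and 4637 ± 213 in WT (SD, n = 3 each), 4.5 times higher in WT. The sums were 0.137% to 0.182% of all RPKM in the cKO libraries and 0.63% to 0.695% in the WT libraries. Without Thbs1 the other 9 genes summed to 900.86, 903.86 and 969.87 RPKM in cKO and 3034.83, 2922.41 and 2993.28 RPKM in WT, a ratio of 3.23. Among the 10, Thbs1 thus carried most of the higher sum of cKO replicate 3.

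The make-up of the sum differed between the groups. In cKO, Sparc made up 51.1%, 42.1% and 44.7% of it, and in WT 35.5%, 35.4% and 35.1%. Thbs1 made up 2.86%, 2.63% and 21.7% in cKO replicates 1 to 3 and 33.7% to 37.2% in WT. Tgfbi held 7.43% to 20.6% of the sum in cKO and 2.12% to 2.13% in WT, Tnc 5.94% to 11.4% in cKO and 0.461% to 0.545% in WT, and Smoc1 2.76% to 6.47% in cKO and at most 0.0114% in WT.

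**Figure D2:**
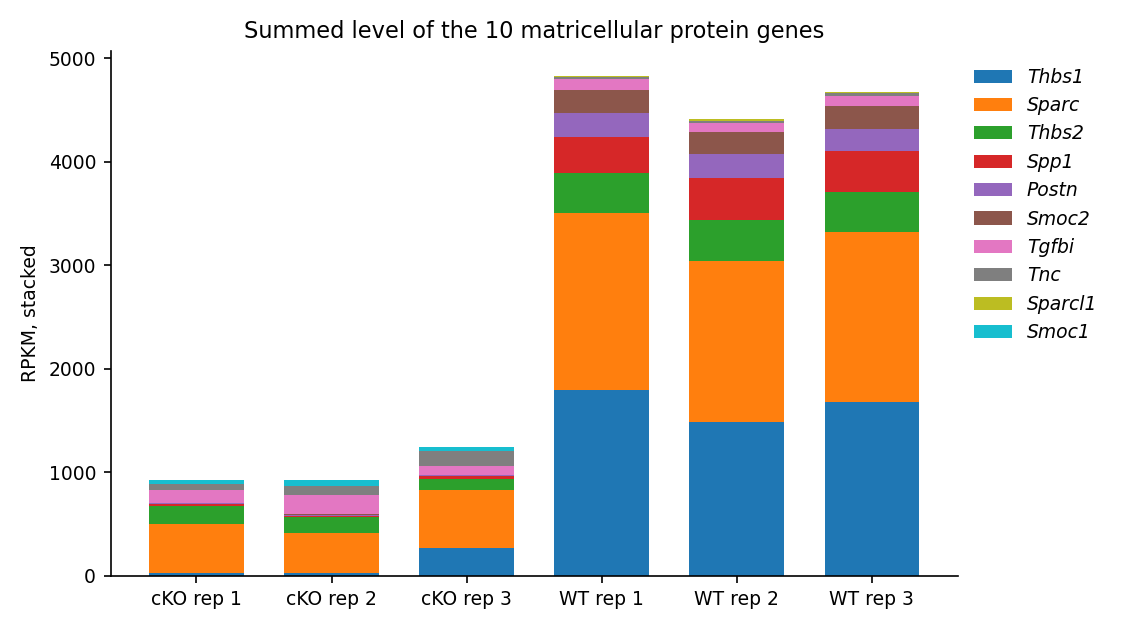
RPKM of the 10 genes stacked for each library, cKO left and WT right, with the y axis starting at 0. The cKO bars reach 927.42 to 1239.21 RPKM and the WT bars 4407.43 to 4829.06 RPKM, and Sparc is the largest block of every cKO bar.

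The order of the genes by level changed with it. In the cKO libraries Sparc came first at 473 ± 81.9 RPKM, apart from the rest. It was followed by Thbs2, Tgfbi, Thbs1, Tnc, Smoc1 and Spp1, a run in which every neighbouring pair overlapped, and then by Postn, Smoc2 and Sparcl1, each clear of its neighbours. In the WT libraries Thbs1 (1654 ± 156 RPKM) and Sparc (1637 ± 77.2) shared the top and overlapped, as did Thbs2 (388 ± 2.43) with Spp1 (382 ± 34.4) and Postn (227 ± 12.9) with Smoc2 (217 ± 3.38). Tgfbi, Tnc, Sparcl1 and Smoc1 came last in that order without overlap. Among all genes of the table by RPKM, Sparc ranked 178 to 213 in cKO and 57 to 62 in WT, and Thbs1 ranked 326 to 4263 in cKO and 52 to 66 in WT.

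The fasciclin-domain genes moved apart. Periostin (Postn, ENSMUSG00000027750, chr3:54361109-54391037, plus strand, 22 exons, GRCm38) encodes a ligand of collagen I, fibronectin and tenascin-C that brings the protease Bmp1 to lysyl oxidase. It stood at 8.12, 12.64 and 4.72 RPKM in cKO, against 238.18, 229.77 and 212.82 RPKM in WT replicates 1 to 3. The highest cKO value was far under the lowest WT value. Postn fell by 4.67 on the log2(RPKM + 1) scale (SE 0.292, limma adjusted p = 4.19e-05). Its TGF-beta-induced paralog Tgfbi (chr13:56609523-56639562, plus strand, 17 exons), a collagen and integrin ligand, stood at 131.61, 190.78 and 92.07 RPKM in cKO and 102.36, 93.76 and 99.71 RPKM in WT. In cKO replicates 1 and 2 it lay above WT and in replicate 3 below it. Its log2 difference of 0.42 had a 95% interval of −0.163 to 1.004 (limma adjusted p = 0.176), and without cKO replicate 3 it passed, at 0.68 with an adjusted p of 0.0103. The log2 ratio of Postn over Tgfbi, with 1 added to each RPKM as in all ratios below, was −3.86, −3.81 and −4.02 in cKO and 1.21, 1.28 and 1.09 in WT. That is a shift of −5.09 (exact permutation test, p = 0.1, the smallest that 3 against 3 allows and also its value adjusted over the 4 pairs compared).

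Tenascin-C (Tnc, chr4:63959785-64047015, minus strand, 26 exons), a large oligomeric glycoprotein that loosens cell adhesion to fibronectin, was higher in cKO. It stood at 55.13, 86.29 and 141.58 RPKM in cKO and at 26.32, 20.3 and 24.71 RPKM in WT. The groups did not overlap, and cKO replicate 3 was the highest library. Tnc rose by 1.85 on the log2 scale (SE 0.321, limma adjusted p = 0.0027), 3.97-fold by the means. On chromosome 4 the median log2 difference of 741 tested genes was 0.44. Only 5 tested genes had a start within 1 Mb of Tnc. Of these, 4 were higher and 1 lower (median 1.66), where 34.7% of all genes tested were higher and 26.5% lower.

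The thrombospondins fell by different amounts. Thbs1 (chr2:118111876-118127133, plus strand, 22 exons), a trimeric protein that activates latent TGF-beta and binds Cd36 and Cd47, showed 26.56, 24.44 and 269.34 RPKM in cKO replicates 1 to 3. In WT replicates 1 to 3 it stood at 1794.23, 1485.02 and 1681.57 RPKM. All cKO values lay under all WT values, but cKO replicate 3 stood far above the other two, with a highest over lowest ratio of 11 in cKO, against 1.21 in WT. Thbs1 fell by 4.84 on the log2 scale (SE 0.877, limma adjusted p = 0.00323), the largest SE of the 10 genes. By the means it was 15.5-fold lower in cKO, and 64.8-fold lower without cKO replicate 3.

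Within cKO, replicate 3 was also far above replicates 1 and 2 for the 3 most abundant of the 7 smooth muscle and pericyte markers, Acta2, Tagln and Cnn1. Acta2, the smooth muscle actin, stood at 68.78, 149.26 and 1532.34 RPKM in cKO and at 1944.95 to 2145.34 in WT. Tagln was at 48.15, 72.72 and 1006.19 RPKM in cKO and at 152.25 to 203.47 in WT, so that replicate 3 lay above every WT library and the other two below. Cnn1 stood at 2.56, 1.58 and 72.35 RPKM in cKO and at 57.36 to 71.15 in WT. The 7 markers summed to 123.02, 228.87 and 2617.18 RPKM in cKO and 2155.23 to 2421.18 in WT, with 4 of 7 at 1 RPKM or more in every cKO library, 3 of 7 in every WT library, and the pericyte marker Rgs5 at 0 in all cKO libraries. Cspg4, another pericyte marker, was higher in cKO, at 3.28, 5.2 and 5.65 RPKM against 0.01, 0.04 and 0 RPKM in WT, and Myh11 and Des stayed under 1 RPKM in every library. Their part in the Thbs1 values was not tested.

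Thbs2 (chr17:14665500-14694235, minus strand, 22 exons), which takes part in collagen fibril assembly and lowers Mmp2 levels, stood at 176.25, 149.35 and 106.72 RPKM in cKO and at 385.06, 389.89 and 387.99 RPKM in WT. The WT libraries were nearly equal and all above the cKO libraries, of which replicate 3 was here the lowest. Thbs2 fell by 1.45 (log2, SE 0.173, limma adjusted p = 0.000528), 2.69-fold by the means. The log2 ratio of Thbs1 over Thbs2 was −2.69, −2.56 and 1.33 in cKO replicates 1 to 3 and 2.22, 1.93 and 2.11 in WT, so Thbs2 was the more abundant of the pair in cKO replicates 1 and 2 and Thbs1 in the other 4 libraries. The shift was −3.39 (exact permutation test, p = 0.1, the smallest possible).

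**Figure D3:**
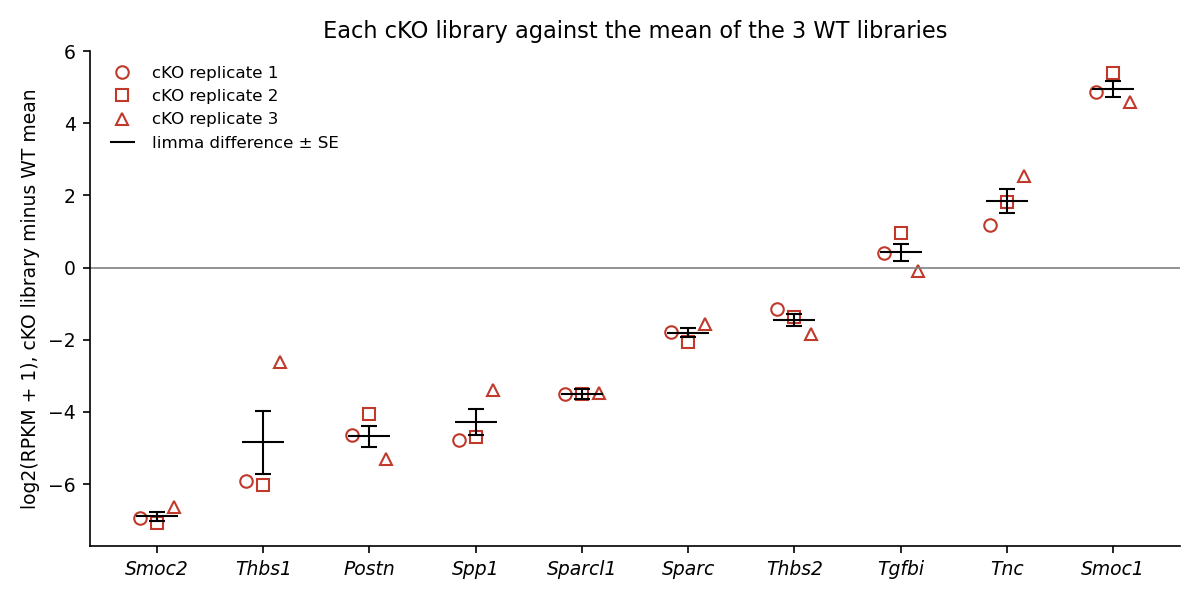
Log2(RPKM + 1) of each cKO library minus the mean of the 3 WT libraries (y axis) for the 10 genes (x axis), with black bars for the limma difference ± SE. Smoc2 is lowest at −6.64 to −7.08 and Smoc1 highest at 4.59 to 5.39. Thbs1 has the widest spread, −2.61 in replicate 3 against −5.90 and −6.02 in replicates 1 and 2.

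The SMOC genes, paralogs with SPARC-like calcium-binding domains, exchanged places. Smoc1 (chr12:81026808-81186414, plus strand, 13 exons), which antagonises BMP signalling in Xenopus and is needed for limb and eye development in mice, stood at 41.87, 60.06 and 34.17 RPKM in cKO. In WT it stood at 0.55, 0.32 and 0.52 RPKM, above the 3-fragment floor of 0.069 RPKM for a transcript of its length. Smoc1 rose by 4.95 on the log2(RPKM + 1) scale (SE 0.21, limma adjusted p = 9.28e-06), 97.9-fold by the means, and chromosome 12 as a whole had a median log2 difference of 0.58 over 433 tested genes. Smoc2 (chr17:14279506-14404790, plus strand, 13 exons) stood at 0.78, 0.61 and 1.19 RPKM in cKO and at 218.33, 213.17 and 219.53 RPKM in WT. It fell by 6.88 (log2, SE 0.125, limma adjusted p = 5.21e-07), and only 0.155% of the genes tested differed more in either direction. The log2 ratio of Smoc1 over Smoc2 was 4.01 to 5.25 in cKO and −7.34 to −7.14 in WT, a shift of 11.8 (exact permutation test, p = 0.1, the smallest possible). With 1 group low for each gene, these log2 sizes depend on the pseudocount. At a pseudocount of 0.1 Smoc1 differed by 6.32 and Smoc2 by −7.87. The ratio shift spanned 11.5 to 14.2 over the alternatives tried. Smoc1 was the more abundant paralog in every cKO library and Smoc2 in every WT library.

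Sparc and its relative Sparcl1 were both lower. Sparc (chr11:55394500-55423183, minus strand, 10 exons), a collagen and calcium binding protein, stood at 474.24, 390.4 and 554.09 RPKM in cKO and at 1712.81, 1558.49 and 1639.08 RPKM in WT. The groups were well apart, and the cKO libraries still held Sparc as the leading gene of the 10. It fell by 1.80 (log2, SE 0.127, limma adjusted p = 6.59e-05), 3.46-fold by the means, while the 1005 tested genes of chromosome 11 had a median log2 difference of 0.42. Sparcl1 (hevin, chr5:104079111-104113733, minus strand, 11 exons), best known for its part in synapse formation, was listed at 0, 0 and 0.02 RPKM in cKO replicates 1 to 3, under the 3-fragment floor of 0.0885 RPKM. In WT it stood at 8.92, 11.08 and 11.46 RPKM. Its log2(RPKM + 1) difference was −3.51 (SE 0.138, limma adjusted p = 6.68e-06), a value that depends on the pseudocount, and no fold is given. The log2 ratio of Sparc over Sparcl1 was 8.61 to 9.09 in cKO and 7.01 to 7.43 in WT, with the same dependence on the pseudocount (exact permutation test, p = 0.1, the smallest possible).

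Osteopontin (Spp1, chr5:104435118-104441050, plus strand, 6 exons) stood at 12.86, 13.73 and 35.31 RPKM in cKO and at 342.3, 405.63 and 397.46 RPKM in WT. The cKO values were all under the WT values, with replicate 3 the highest of them. Spp1 fell by 4.29 (log2, SE 0.361, limma adjusted p = 0.000127). By the means it was 18.5-fold lower in cKO, and 28.7-fold lower without cKO replicate 3.

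Spread among libraries was wider in cKO for 9 of the 10 genes on the log2(RPKM + 1) scale, from an SD of 0.23 for Smoc2 to 1.94 for Thbs1 in cKO, against 0.01 for Thbs2 to 0.19 for Tnc in WT. The exception was Sparcl1, near 0 in every cKO library. The share of all genes tested with a wider spread in cKO was not counted, so this is not shown to be particular to these genes. Outside the 10, the SD in RPKM of Fstl1 was 87 in cKO and 8.58 in WT, and that of Cd47 0.847 and 2.6. Against replicates 1 and 2, cKO replicate 3 was the highest for Thbs1, Spp1, Tnc, Sparc and Smoc2 and the lowest for Postn, Tgfbi, Thbs2 and Smoc1.

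Some of these genes are neighbours in the genome. Spp1 and Sparcl1 bound the cluster of bone and tooth matrix genes on chromosome 5, 321.4 kb apart, with Dspp, Dmp1, Ibsp and Mepe between them. Those 4 genes stayed at 0.11 RPKM or less in every library, Dspp and Mepe at 0. Just beyond Spp1, Pkd2 was at 25.8, 28.76 and 29.69 RPKM in cKO and 26.64, 28.97 and 27.04 in WT (log2 difference 0.03, limma adjusted p = 0.816). On the far side of Sparcl1, Nudt9 fell to 32.54, 41.8 and 24.75 RPKM in cKO, against 53.6, 50.42 and 56.69 in WT, a log2 difference of −0.71 (limma adjusted p = 0.0133). Farther out, Hsd17b11 rose to 91.9, 122.88 and 31.31 RPKM in cKO, against 21.05, 22.7 and 22.33 in WT, a log2 difference of 1.64 (limma adjusted p = 0.0204). Around Spp1, 2 of 8 tested genes within 1 Mb rose and 3 fell, Sparcl1 among the latter. Of all genes tested, 34.7% rose and 26.5% fell. Genes of this locus thus moved in both directions. Elsewhere the neighbours differed. Around Thbs1, which fell, 0 of 15 rose and 8 fell, and around Sparc, which also fell, 7 of 12 rose and 2 fell. Around Tgfbi, not called, 7 of 9 rose and 1 fell. Around Smoc1, which rose, 10 of 16 rose and 2 fell. Around Postn and Thbs2, which fell, 3 of 12 rose and 3 fell, and 5 of 12 rose and 2 fell. Smoc2 and Thbs2 lie 260.7 kb apart on chromosome 17, and their log2 differences were −6.88 and −1.45. Among the 7 tested genes within 1 Mb of Smoc2, 3 rose and 2 fell, to be set beside the same shares of all genes. The median log2 difference on chromosome 17 was 0.15. These neighbours were chosen by position after the values were seen.

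**Figure D4:**
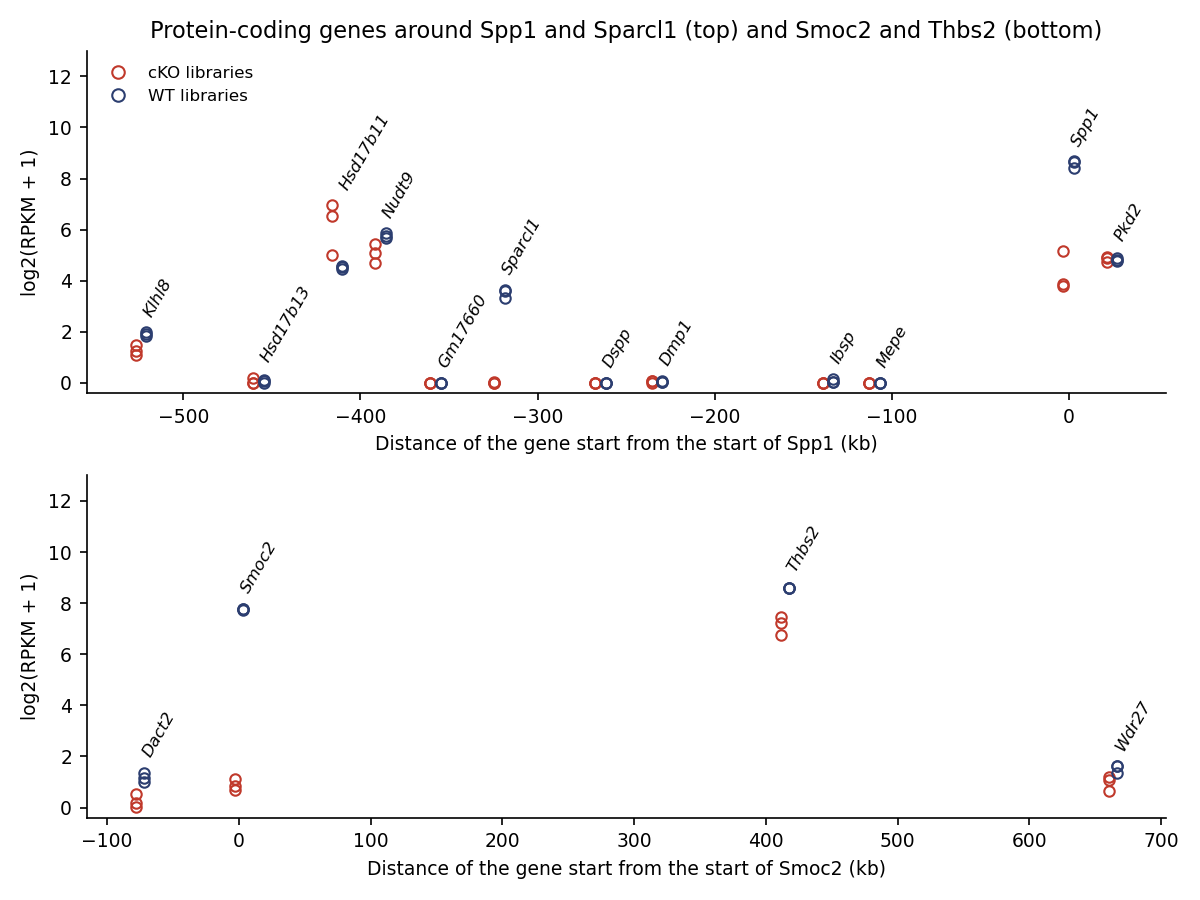
Log2(RPKM + 1) of protein-coding genes (y axis) by the distance of their start from that of Spp1 (upper panel) or Smoc2 (lower panel) in kb (x axis). Each circle is a library, cKO in red left of WT in blue. Spp1, Sparcl1 and Smoc2 have cKO circles far below their WT circles, while Pkd2 beside Spp1 has both sets together, at 25.8 to 29.69 RPKM.

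Most listed relatives of these families were under the minimum mean. Of 16 listed relatives (other thrombospondins and tenascins, SPARC-like genes, bone sialoproteins and stabilins), 3 reached the test, 2 rose and 1 did not pass. The share of all genes tested was 34.7% higher and 26.5% lower. Of the 13 under the minimum, which were not tested, 3 passed 1 RPKM in some library. The tenascin Tnn was listed at 0 in every cKO library and at 1.8, 1.31 and 2.0 RPKM in WT, the SPARC-like Spock2 was at 1.56, 1.68 and 1.74 RPKM in cKO and 0.01, 0 and 0.02 in WT, and Stab1 was at 0.21, 0.05 and 0.58 RPKM in cKO and 2.0, 1.97 and 0.66 in WT. These values, chosen after they were seen, lay in both directions. Thbs3, a pentameric thrombospondin, stood at 17.95, 17.33 and 21.96 RPKM in cKO and 6.46, 7.21 and 7.46 RPKM in WT, a rise of 1.31 (log2, SE 0.119, limma adjusted p = 0.00017). The cartilage thrombospondin Comp stood at 6.86, 2.06 and 20.66 RPKM in cKO and 0.45, 0.2 and 0.74 RPKM in WT. Its rise of 2.48 passed (SE 0.658, limma adjusted p = 0.0159) but not without WT replicate 1 (0.0517) or WT replicate 2 (0.059). Fstl1, a follistatin-like member of the SPARC family, stood at 210.3, 261.02 and 379.77 RPKM in cKO and 251.9, 260.53 and 243.38 in WT, with overlapping groups (log2 difference 0.13, adjusted p = 0.609). Thbs3 and Comp thus moved opposite to Thbs1 and Thbs2.

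Receptors were lower in 8 of 15 tested cases, higher in 1 and not called in 6, with a median log2 difference of −0.71 and 9 lower without cKO replicate 3. Beside this, 26.5% of all genes tested were lower, 34.7% higher and 61.2% called in either direction. Of the 22 listed, 7 were under the minimum. Among these was Cd36, a thrombospondin receptor, chosen after its values were seen, which reached at most 0.03 RPKM in any library. Cd47, another thrombospondin-1 receptor, fell to 15.4 ± 0.847 RPKM in cKO, against 31.6 ± 2.6 in WT (limma adjusted p = 0.000197). Itgav, the integrin chain that pairs to bind Spp1, Postn and Tnc, fell to 29.6 ± 4.52 RPKM in cKO, against 68.1 ± 3.72 in WT (limma adjusted p = 0.000239). Cd44 (chosen after its values were seen), a receptor of Spp1, fell to 31.7 ± 12.2 RPKM in cKO, against 105 ± 3.35 in WT (limma adjusted p = 0.00089). The proteoglycan Sdc1 fell 1.65-fold (limma adjusted p = 0.000234). Neither Cd47 nor Sdc1 reached an absolute log2 difference of 1 (−0.99 and −0.71). Ptprz1, a receptor phosphatase that binds tenascins, was the 1 receptor that rose, to 20.9 ± 2.53 RPKM in cKO, against 0.303 ± 0.0577 in WT (limma adjusted p = 2.73e-06). Itgb1 (chosen after its values were seen), the common integrin chain, stood at 227.03, 333.41 and 459.82 RPKM in cKO and 428.89 to 444 in WT, and passed as lower without cKO replicate 3 (adjusted p = 0.0114) but not with it (0.165).

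Matrix proteins that bind these factors fell in 13 of 18 tested cases and rose in 4, with a median log2 difference of −2.999 (14 and 4 without cKO replicate 3). Across all genes tested, 26.5% fell and 34.7% rose. Col1a2, a collagen I chain bound by Sparc and Postn, fell to 12.4 ± 7.64 RPKM in cKO, against 976 ± 25.8 in WT (limma adjusted p = 2.48e-05), 78.7-fold lower by the means and 122.1-fold without cKO replicate 2. The collagen VI chains Col6a1 and Col6a2 fell 8.05-fold and 11.3-fold (limma adjusted p = 2.7e-05 and 2.28e-05). Decorin (Dcn) rose to 131.45, 170.63 and 79.25 RPKM in cKO, against 0 listed in every WT library (limma adjusted p = 5.79e-06). Fibronectin (Fn1), a partner of Postn and Tnc chosen after its values were seen, stood at 261.76, 243.25 and 919.5 RPKM in cKO and 1171.55, 1045.72 and 1100.73 in WT. Its fall of 1.51 (log2, SE 0.489, limma adjusted p = 0.0338) was not called without cKO replicate 1, cKO replicate 2 or any 1 WT replicate (0.0848 to 0.105).

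Listed enzymes and helper proteins that process matricellular or other matrix proteins fell in 9 and rose in 4 of 17 cases, median −0.64 (10 and 5 without cKO replicate 3). The 4 that rose include the collagen chaperone Serpinh1, named after its values were seen, and Fam20a, neither of them an active enzyme. For comparison, 26.5% of all genes tested fell and 34.7% rose. Bmp1, the procollagen C-proteinase that Postn carries, fell to 32.9 ± 2.61 RPKM in cKO, against 88.8 ± 1.34 in WT (limma adjusted p = 2.81e-05). The membrane protease Mmp14 fell 4.36-fold (limma adjusted p = 0.000101), and Mmp13 stood at 0, 0.03 and 0.07 RPKM in cKO and 4.12, 4.72 and 3.57 RPKM in WT. Fam20a, a pseudokinase that assists the Spp1 kinase Fam20c, rose 4.56-fold to 222 ± 36 RPKM in cKO, against 48.8 ± 1.4 in WT (limma adjusted p = 3.08e-05).

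Factors known to act upstream of these genes went both ways, with 11 of 24 higher, 7 lower and a median log2 difference of 0.20 (12 and 9 without cKO replicate 3). Among all genes tested, 34.7% were higher and 26.5% lower. Runx2, the osteoblast transcription factor that recognises Runx sites, fell to 5.19, 7.06 and 7.19 RPKM in cKO, against 23.72, 25.83 and 22.24 in WT (limma adjusted p = 9.46e-05). Mrtfa, a coactivator of Srf, fell 2.31-fold (limma adjusted p = 0.000114). The immediate early factors Egr1 and Fos rose 9.06-fold and 15.6-fold, with 106 ± 23.6 and 48.9 ± 19.4 RPKM in cKO against 11.7 ± 3.28 and 3.13 ± 1.18 RPKM in WT (limma adjusted p = 8.88e-05 and 0.000166). Tgfb3 (chosen after its values were seen), a ligand of the pathway that induces Tgfbi, Postn and Thbs1 in fibroblasts, stood at 110.24, 85.18 and 256.3 RPKM in cKO and 29.64, 29.39 and 29.52 in WT (limma adjusted p = 0.00284).

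**Figure D5:**
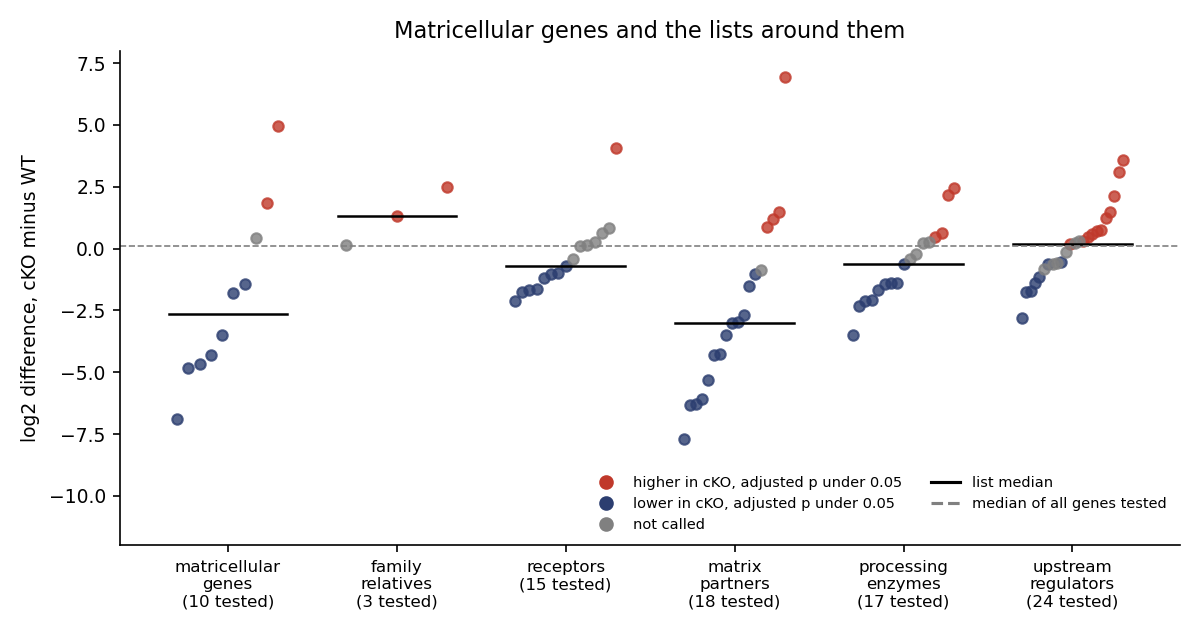
Log2 difference, cKO minus WT (y axis), of each tested gene in the matricellular group and the 5 lists around it (x axis). Red, blue and grey points are genes higher, lower and not called, black lines are list medians and the dashed line is the median of all genes tested, 0.09. The matricellular genes and the matrix partners have the lowest medians, −2.65 and −2.999.

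For each gene the tested protein-coding gene with the most similar profile was found as the smallest Euclidean distance between log2(RPKM + 1) values centred on the WT mean, over 6 libraries and 10906 candidates. Smoc1 was nearest to the transcription factor Foxd1 (distance 0.24), which stood at 29.61, 45.54 and 26.39 RPKM in cKO and 0.08, 0.13 and 0.11 in WT. Smoc2 was nearest to Car3 (0.41), a carbonic anhydrase at 0 to 0.03 RPKM in cKO and 102.52 to 107.19 in WT. Sparcl1 was nearest to the stem cell marker Lgr5 (0.19), at 0, 0.03 and 0.04 RPKM in cKO and 9.25, 11.91 and 10.21 in WT. Spp1 was nearest to Oaf (0.28), Postn to Ly6c1 (0.80), Sparc to Kctd11 (0.14), Thbs2 to Crat (0.10), Tgfbi to Acox3 (0.20) and Tnc to the phosphatase Dusp1 (0.41). Thbs1 had the most distant nearest gene, the secreted Angptl2 (1.197), which stood at 2.26, 4.03 and 22.94 RPKM in cKO and 143.44 to 153.51 in WT. With the groups this far apart, the distances mostly reflect the difference between groups.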

How the data were processed

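RNA of 6 libraries was read as 151 bp pairs from stranded polyA libraries, per the labels' protocols. The submitters' processing notes list RSEM 1.3.1, STAR 2.7.1a and cutadapt 2.8 with build GRCm38, and the annotation version is not given in the sources used here. The authors deposited RPKM values with 2 decimals for 55471 Ensembl genes, of which 32449 are 0 throughout. Symbols and coordinates come from GENCODE M21 (GRCm38).

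Read counts are not used here. Low RPKM values of genes with 1 transcript (800 to 3500 bp, less 150 bp) move in steps, which gave each library's depth. Whole fragments, to within 0.2, were met by 77.4% to 88.9% of these values per library (40% by chance). The floor, 3 fragments, came to 0.136 to 0.231 RPKM for each effective kilobase and covers counting error only.

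From the deposited values, log2(RPKM + 1) was fitted by limma (3.58.1, R 4.3.3) with genotype as the only term and a variance trend. The fit took the 12223 genes averaging 1 RPKM or more, and p-values are two-sided with Benjamini-Hochberg adjustment over them. Values after ± are SD over 3 libraries unless SE is written. Folds are ratios of group means of RPKM. The procedure was tested on simulated data in which few genes changed, unlike these data. No result above rests on that test. The genes and lists were chosen with earlier results of these data known. Named are the 10 genes, up to 4 genes with the smallest p of each list, the nearest profile of each gene, Bap1 and markers, and others are said to have been chosen after their values were seen. The summed level of the haematopoietic markers is not reported here. Tried as alternatives were pseudocounts, minimum means, scalings, variance priors, sample weights, the replicate block, chromosome centring, other thresholds and leaving out each library. Figures were drawn with matplotlib 3.10.9 in Python 3.11.15.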

Additional observations from a re-analysis of the deposited data

How the results depend on the processing

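The 9 called genes of the 10 kept their direction and their call under all 21 alternatives, and Tgfbi passed in addition without cKO replicate 3 (log2 difference 0.68) and with sample weights (0.55, limma adjusted p = 0.0228). Requiring an absolute log2 difference of at least 1 left 1632 genes higher in cKO and 1499 genes lower in cKO of the 4237 and 3239 called, with 2 and 7 of the 10 unchanged in number. Leaving out 1 library gave 3475 to 4517 genes higher and 2695 to 3588 lower, and 2 to 3 of the 10 higher and 7 lower. Trimmed-mean scaling moved the median of all genes to −0.01, against 0.09 as deposited, and turned the excess of higher over lower genes: genes higher in cKO and genes lower in cKO numbered 3619 and 3773 with it, 3620 and 3771 with median of ratios scaling and 3327 and 3602 with chromosome centring. Fstl1, not called, changed sign with sample weights (−0.0047) and among the fits that leave out 1 library (−0.1037 without cKO replicate 3 to 0.3211 without cKO replicate 1), and the cause was not tested. The calls of Fn1 and Comp were lost in 6 and 2 alternatives, and those of Cd47 (−0.99) and Sdc1 (−0.71) when an absolute log2 difference of at least 1 was required.

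The replicate numbers did not pair the libraries: deviations of equal numbers correlated at −0.017, 0.05 and −0.019, and not every library correlated best with its own number. With the replicate block the genes higher in cKO numbered 3811 and the genes lower in cKO 2938, and the 10 genes gave the same counts of 2 and 7. With 3 libraries a group, the exact tests of ratios cannot go below 0.1. Low values such as those of Sparcl1 in cKO are limited by depth.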
